A study of Mus musculus with 4 samples.

Results

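The integrin beta subunits are a family of 8 mouse genes, Itgb1 to Itgb8, chosen by name alone: a row of the count files belonged to the family if its gene symbol was one of these. Each of the 8 had 1 row, of 23282 rows and 23238 distinct symbols, and rows are counted below as genes. Itgbl1, Itgb2l, Itgb1bp1, Itgb1bp2 and Itgb3bp share the first letters of the symbol and were not members. RNA was compared between endothelial cells (ECs) of the dura mater, the tough outer membrane under the skull, and ECs of the brain parenchyma. Both groups were C57BL/6J mice at 8 weeks of age with no treatment named in the labels, and each tissue had 2 libraries, numbered 1 and 2. Per the methods of the study, ECs were sorted as CD31+ cells that lacked CD45 and TER-119, and brain ECs alone went through an added magnetic enrichment for CD31 before the sort. How many animals went into a library is not given in the sources used here, and p-values therefore measure only the spread between these libraries, which may be technical.

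An integrin is a membrane receptor made of an alpha and a beta subunit, which together bind matrix proteins or receptors on other cells. The beta subunit carries most of the contacts to the cytoskeleton through talin and kindlin, while the alpha subunit sets much of the ligand preference. In vessels, integrins hold ECs on the laminin and collagen of the basement membrane, and integrins of alpha v are known for their place in sprouting vessels. The study asked how the 2 EC types differ in expression and took up integrin signaling as a topic.

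Libraries held from 13518973 to 16096203 counts, and from 9350 to 11803 genes had at least 1 count. Replicates were far apart: over the 9347 tested genes, the Pearson correlation of log2(CPM + 1), where CPM is the count scaled to a common library size, was 0.54 between the brain libraries and 0.672 between the dura mater libraries. A value across genes has no independent replicates and is given as a description. The common biological coefficient of variation was 1.39. Many genes had high counts in 1 library and almost none in the other of the same tissue. Of the genes with 500 to 2500 counts in brain replicate 1, 16.3% had 7 or fewer in brain replicate 2, and the reverse share was 17.7%. In the dura mater these shares were 2.49% (replicate 1) and 11.2% (replicate 2). The endothelial label held in both tissues, since all 12 pan-endothelial markers were counted, at a summed 11499 and 13967 CPM in brain, against 9219 and 11694 CPM. Brain endothelial markers, such as the glucose transporter Slc2a1, summed to 27814 and 26012 CPM against 3584 and 3779 CPM. In edgeR 5 of these 10 fell in dura mater ECs (Mfsd2a, Tfrc, Slco1a4, Itm2a and Slc2a1, log2 fold changes −4.82 to −2.82), as did the pan-endothelial Cldn5 (−2.52, adjusted p = 0.0388). Over all 9347 genes tested, 17 were lower in dura mater ECs at an edgeR adjusted p under 0.05. Erythroid markers were at 17855 and 25466 CPM in brain, against 1483 and 755 CPM, although the sort removed TER-119+ cells. Of these 7 genes 5 were tested, and Hba-a1, Hbb-bs and Hbb-bt fell (log2 fold changes −4.26, −4.27 and −4.14, adjusted p = 0.0248 each in edgeR).

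Itgb1 was the beta subunit that ECs of both tissues carried in large amounts, and its difference between them did not pass the test. The gene (ENSMUSG00000025809.15) lies on the plus strand of chromosome 8, 128685654 to 128733200, in GRCm38. It encodes the common partner of most alpha subunits that bind collagen, laminin and fibronectin. Itgb1 was counted 14312 and 9468 times in brain ECs, against 15639 and 18107 times in the dura mater. It stood between place 114 and place 218 among all genes of a library. Both dura mater values were above both brain values. Dura mater ECs held 1128 ± 40.0 CPM and brain ECs 844 ± 190 CPM (SD, n = 2). The log2 fold change, dura mater over brain, came to 0.42 with an SE of 0.32 (edgeR adjusted p = 0.873). The 95% interval of the log2 difference from that fit, −0.36 to 1.20, spans 0.

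The promoter windows of Itgb1 and Itgb5 are shown because these genes differ in pattern, Itgb1 being counted everywhere and Itgb5 almost only in dura mater ECs. Each is the stretch of 250 bases before the start site, from RefSeq on GRCm38.p6, 5′ to 3′ on the plus strand. Of the 8 genes, 5 matched an entry (Itgb1, Itgb5, Itgb6, Itgb7 and Itgb8), and Itgb2, Itgb3 and Itgb4 did not. Capitals mark GGAA, the core of ETS factor motifs, and GGGCGG, the GC box, each searched on both strands (as TTCC and CCGCCC on the other).
Itgb1, chr8:128685404-128685653: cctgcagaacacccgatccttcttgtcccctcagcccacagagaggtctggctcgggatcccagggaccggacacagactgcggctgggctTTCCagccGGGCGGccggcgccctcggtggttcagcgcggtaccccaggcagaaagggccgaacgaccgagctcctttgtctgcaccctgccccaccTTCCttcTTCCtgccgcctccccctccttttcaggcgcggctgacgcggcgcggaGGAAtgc
Itgb5, chr16:33829415-33829664: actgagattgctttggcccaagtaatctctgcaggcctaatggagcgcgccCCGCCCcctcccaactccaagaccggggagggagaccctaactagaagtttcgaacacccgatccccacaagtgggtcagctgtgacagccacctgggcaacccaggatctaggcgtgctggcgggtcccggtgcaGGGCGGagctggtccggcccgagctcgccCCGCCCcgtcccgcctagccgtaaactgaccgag
The Itgb1 window held 4 GGAA cores and 1 GC box, and the Itgb5 window 0 GGAA cores and 3 GC boxes. Of 32851 mouse promoter windows of the same length, 93.4% held a GGAA core and 32.7% a GC box. Both windows were rich in G and C, at 68% and 65.2% against a median of 52.4%, with 21 and 18 CpG pairs against a median of 6. TATAAA, found in 12.4% of all windows, was in neither. These are letter matches and not binding sites.

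Itgb4 was 1 of 3 members that were near 0 in brain ECs and counted in both dura mater libraries. The gene (ENSMUSG00000020758.15; chromosome 11, 115974709 to 116008412, plus strand, GRCm38) encodes the partner of alpha 6 in a laminin receptor. It is known for hemidesmosomes, where its long inner tail holds plectin. Its longest coding sequence has 5454 bases, against 2301 to 2448 in the other members. Itgb4 was counted 0 times and 1 time in brain ECs, against 1256 and 2261 times in the dura mater. The tissues did not overlap, and both dura mater libraries were high. The level in dura mater ECs was 115 ± 31.4 CPM (SD, n = 2). The ratio of summed counts, scaled by library size, was 3279, with a 95% exact binomial interval of 588 to 129549 that covers counting error only. The fitted log2 fold change was 9.36 (SE 1.71), and it did not pass over all genes (edgeR adjusted p = 0.108, unadjusted p = 0.00132). Exons of a non-coding gene on the opposite strand cover 7.66% of its exon length. The use of strand in counting is not given in the sources used here, so reads of this part cannot be assigned.

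Itgb5, the partner of alpha v in a vitronectin receptor, showed the same split with a wider spread. The gene (ENSMUSG00000022817.15) spans 33829665 to 33949338 on the plus strand of chromosome 16. Each brain library held 2 counts of it, while the dura mater libraries held 1305 and 555. Dura mater replicate 1 was the higher, while for Itgb4 it was the lower. Its level in dura mater ECs was 65.1 ± 44.4 CPM, against 0.143 ± 0.00926 CPM in brain (SD, n = 2). The scaled ratio of summed counts was 433 (95% exact binomial interval 169 to 1593, counting error only), and the log2 fold change was 7.86 (SE 2.23, edgeR adjusted p = 0.328). Of the 50-base words in its transcripts, 7.25% also occur in transcripts of the predicted gene Gm38317, which has no row in the count files.

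Itgb3 completed the set of members near 0 in brain ECs. The gene (ENSMUSG00000020689.4; chromosome 11, 104608000 to 104670476, plus strand, GRCm38) encodes the partner of alpha v in the other main vitronectin receptor, known from sprouting vessels, and of alpha IIb in the fibrinogen receptor of platelets. It was at 0 in both libraries of the brain, while those of the dura mater held 727 and 607 counts. Its level in the dura mater was 45.3 ± 11.9 CPM (SD, n = 2). Against a floor of 3 counts in each brain library, dura mater ECs were at least 211-fold higher, a bound for counting error only. Of the genes with 500 to 2500 counts in 1 brain library, 16.3% and 17.7% had 7 or fewer in the other, which this bound does not cover. The fitted log2 fold change, 8.36 with an SE of 2.46 (adjusted p = 0.396 in edgeR), depends on the prior count, since brain ECs were at 0, and is no bound.

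The other 4 members were at or near 0 in both tissues. Itgb2 (chromosome 10, 77530252 to 77565708, plus strand), the beta subunit of leukocyte integrins that bind ICAM proteins, was counted 2 times in each brain library, against 1 and 2 in the dura mater. Itgb7 (chromosome 15, 102215995 to 102231944, minus strand) belongs to lymphocyte integrins that bind MAdCAM-1 or E-cadherin. Itgb6 (chromosome 2, 60598292 to 60722643, minus strand), a subunit of epithelia, and Itgb8 (chromosome 12, 119158022 to 119238802, minus strand), a subunit of astrocytes and other neural cells, pair with alpha v and release active TGF-beta from its latent complex. Itgb6, Itgb7 and Itgb8 had 0 counts in all 4 libraries. By counting error alone, a count of 0 allows from 0.182 to 0.225 CPM, the value of 3 counts in a library. Since many genes at 500 to 2500 counts fell to 7 or fewer in the other library of their tissue, a 0 here does not cap the true level. Of all genes listed, 41.3% had 0 counts in all 4 libraries, against 3 of the 8 members. No fold is given for these genes.

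**Figure D1:**
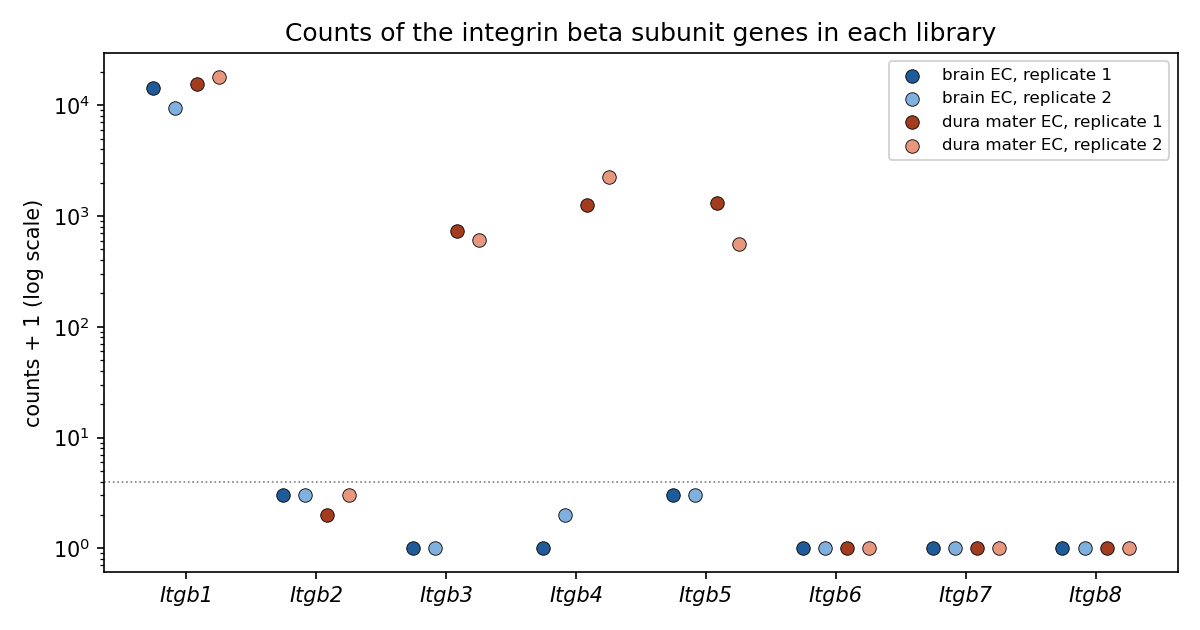
Counts plus 1 (log scale) of the 8 integrin beta subunit genes, 1 point per library, with brain EC libraries in blue and dura mater EC libraries in red; the dotted line marks 3 counts. Itgb1 lies between 9468 and 18107 counts in every library, Itgb3, Itgb4 and Itgb5 lie at 0 to 2 counts in the brain libraries but at 555 to 2261 in those of the dura mater, and Itgb2, Itgb6, Itgb7 and Itgb8 are at 2 or fewer.

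Of the 8 members, 4 had enough counts for the test (Itgb1, Itgb3, Itgb4 and Itgb5), and 3 of these passed the filter only through their dura mater counts. By the quasi-likelihood test of edgeR, none of the 4 had an adjusted p under 0.05, beside 57 of the 9347 genes tested (0.610%, and 0.428% for those that were higher in dura mater ECs). At an unadjusted p under 0.05, 3 members were higher in dura mater ECs, as were 7.04% of the genes tested. In DESeq2 the same 3, Itgb3, Itgb4 and Itgb5, passed with adjusted p = 0.000413, 5.3e-07 and 8.9e-05, where 8.67% of genes were called in either direction and 6.63% as higher. In limma-voom the count was 0 (adjusted p = 0.0892, 0.0734 and 0.151), against 0.856% of genes. With the replicate number as a block, 2.40% of genes and 1 member, Itgb4, were called. The tissues did not overlap in CPM for each of the 4 members tested, nor for 43.1% of all genes tested (26.2% higher in dura mater ECs, as all 4 members were). With 2 libraries against 2, an exact permutation test cannot go below p = 0.333.

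The pattern of Itgb3, Itgb4 and Itgb5, at most 7 counts in each library of the brain with at least 64 in each of the dura mater, was met by 761 genes (3.27% of all genes listed and 8.14% of genes tested). The reverse pattern was met by 47 genes (0.202%) and by no member. Among the 761, edgeR called 22 (2.89%) and DESeq2 463 (60.8%). Seen by level, 2224 genes had 500 to 2500 counts in both dura mater libraries, a range that holds Itgb3, Itgb4 and Itgb5, and 5.75% of those had 7 or fewer in both brain libraries. In bulk RNA, fewer cells that express a gene and less RNA per cell cannot be told apart.

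**Figure D2:**
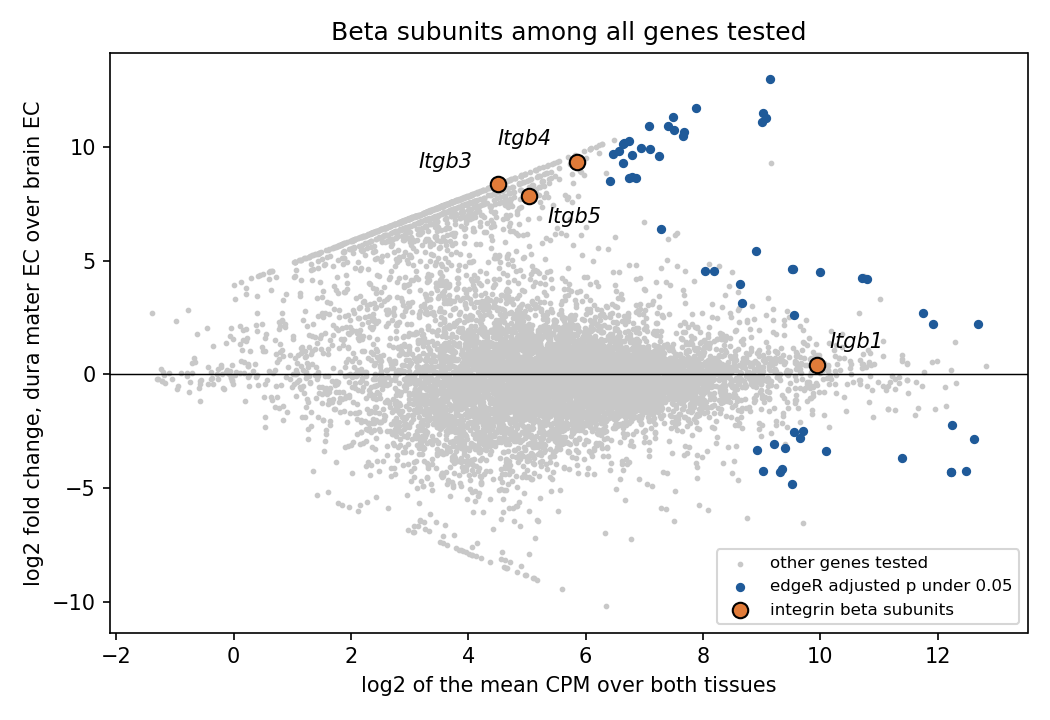
Each point is 1 of the 9347 genes tested, placed by the log2 of its mean CPM over both tissues (horizontal) and its edgeR log2 fold change, dura mater over brain ECs (vertical); the 57 genes with an adjusted p under 0.05 are blue and the 4 beta subunits tested are orange. Itgb3, Itgb4 and Itgb5 have log2 fold changes of 7.86 to 9.36 at a lower mean level than Itgb1, which sits near 0 at a high level.

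The make-up of the beta subunit pool does not depend on scaling between libraries. Itgb1 held 99.97% (95% Wilson interval 99.93 to 99.99) and 99.95% (99.88 to 99.98) of all beta subunit counts in the brain libraries. In the dura mater libraries it held 82.6% (82.1 to 83.2) and 84.1% (83.6 to 84.6). These intervals cover counting error within a library and not the spread between libraries. The part held by other members was 16.6% ± 1.04 in dura mater ECs, against 0.0404% ± 0.0176 in brain (SD, n = 2, two-sided exact permutation p = 0.333, the smallest this design allows). It was above 15% in both dura mater libraries and near 0 in both brain libraries. Itgb4 held 6.64% and 10.5% in dura mater replicates 1 and 2, Itgb5 6.89% and 2.58%, and Itgb3 3.84% and 2.82%. All beta subunits together summed to 979 and 710 CPM in brain, against 1399 and 1307 CPM in the dura mater.

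**Figure D3:**
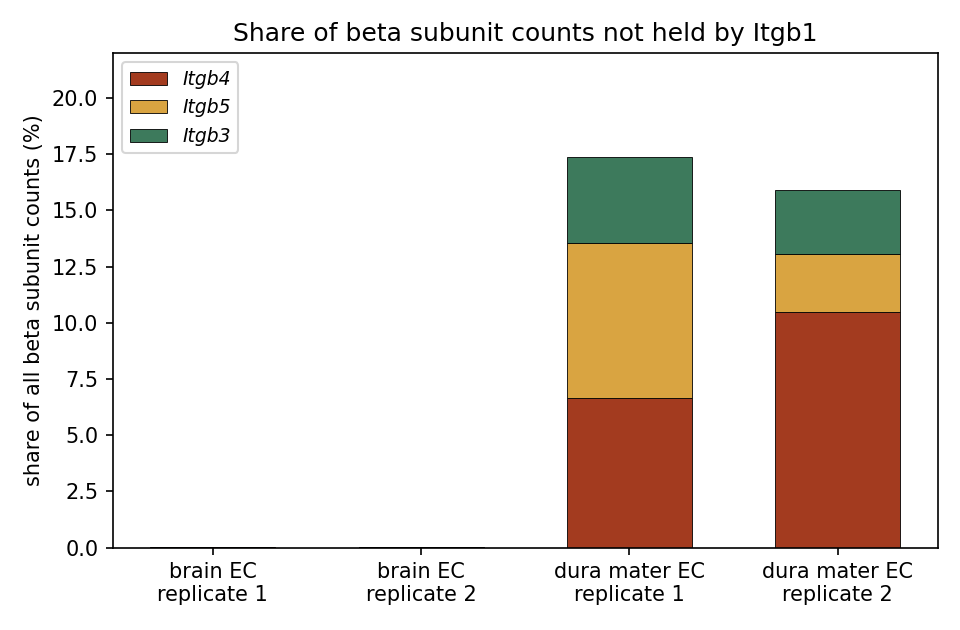
Stacked bars give the share of all beta subunit counts (percent, from 0) held by Itgb4, Itgb5 and Itgb3 in each library, the rest being Itgb1 except for Itgb2 at 0.0211% or less. The bars reach 17.4% and 15.9% in dura mater replicates 1 and 2. In brain ECs all members but Itgb1 hold 0.0279% and 0.0528%, too little to be seen.

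By CPM, the order in dura mater ECs was Itgb1, Itgb4, Itgb5 and Itgb3. The step from Itgb1 to Itgb4 was 12.5-fold in replicate 1 and 8.01-fold in replicate 2. Itgb4 and Itgb5 changed places between the replicates (ratio of counts 0.963 and 4.07), and so did Itgb5 and Itgb3 (1.80 and 0.914), so these neighbors did not differ beyond their spread. Itgb4 was above Itgb3 in both libraries (1.73-fold and 3.72-fold). Counts per transcript depend on length unless reads come from the 3′ end alone, as the kit named in the labels is meant to give. The catalogue number in the labels may be that of another kit, so the labels do not settle this. Per kilobase of exon, dura mater ECs had 276 ± 9.80 CPM per kb of Itgb1, 18.3 ± 12.5 of Itgb5, 16.4 ± 4.48 of Itgb4 and 7.68 ± 2.02 of Itgb3, which puts Itgb5 before Itgb4. In brain ECs the order was Itgb1 (207 ± 46.7 CPM per kb) and then only values at or under 0.047 CPM per kb.

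Each beta subunit reaches the cell surface with an alpha partner. Itga6 and Itgav, partners of Itgb4 and of Itgb5 and Itgb3, were counted in both brain libraries. Of 18 alpha subunit genes, 9 were tested and none passed in edgeR (2 at an unadjusted p under 0.05, both higher in dura mater ECs, and 1 in DESeq2). Their median log2 fold change was 0.34, against −0.01 over all genes tested. Of all genes tested, 7.04% were higher at that unadjusted p in edgeR, and DESeq2 called 6.63% higher. Itga6, the partner of Itgb4 and also of Itgb1, had 4526 and 2952 counts in brain, against 1591 and 2350, with no overlap (log2 fold change −1.03, adjusted p = 0.524 in edgeR). Itgav, a partner of Itgb5 and Itgb3 though not of these alone, had 454 and 747 counts in brain, against 2 and 370 (adjusted p = 0.9999 in edgeR). In dura mater replicate 1, Itgb5 and Itgb3 were thus counted 1305 and 727 times beside 2 counts of Itgav. Itga2b, the platelet partner of Itgb3, was counted in replicate 1 of each tissue (395 and 487) and at 0 in replicate 2 of each.

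Partners of Itgb1 differed among themselves. Itga3, a laminin receptor subunit, had 1509 and 1944 counts in brain, against 2109 and 2621 in the dura mater. Itga9, which binds tenascin and is known from lymphatic valves, was at 0 in brain and had 1690 and 1368 counts in the dura mater (adjusted p = 0.127 in edgeR and 6.5e-08 in DESeq2). Itga5, the fibronectin receptor subunit, was also at 0 in brain, with 182 and 351 counts in the dura mater (adjusted p = 0.466 in edgeR). Itga7, a laminin receptor subunit, went the other way, with 501 and 186 counts in brain, against 3 and 0 (adjusted p = 0.532 in edgeR). Itga4, which also pairs with Itgb7, had 1201 and 222 counts in brain, against 2 and 130. Of the other leukocyte partners of Itgb2 and Itgb7, Itgal, Itgad, Itgae and Itgax had 3 or fewer counts in every library. Itgam had 87 counts in dura mater replicate 1 and 2 or fewer elsewhere.

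**Figure D4:**
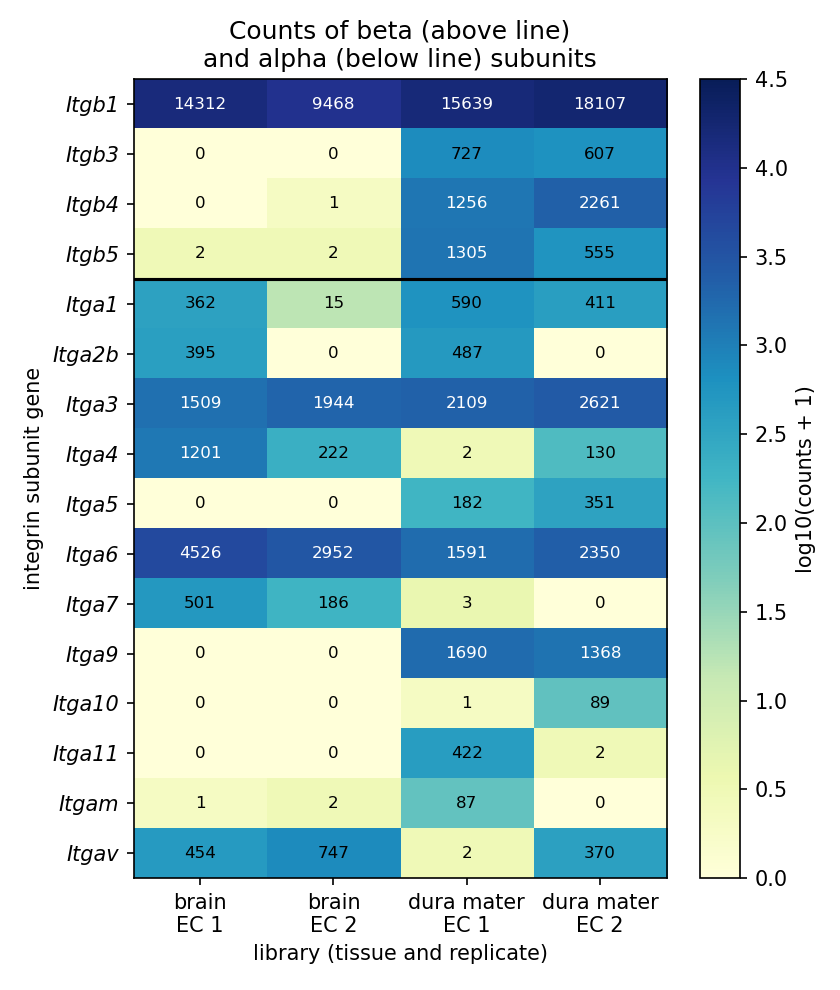
Color gives log10(counts + 1) and the printed number the count, for each library (columns) and each beta (above the line) or alpha (below the line) subunit with over 7 counts in some library. Itgb3, Itgb4, Itgb5, Itga5 and Itga9 have 0 to 2 counts in each brain library but at least 182 in each of the dura mater, while Itga6 has at least 2952 in brain and at most 2350 in the dura mater.

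Of 33 ligand genes listed, 22 were tested and 1 passed in edgeR, as did 0.610% of all genes tested. The median log2 fold change was 1.28, against −0.01 over all genes tested. At an unadjusted p under 0.05, 7 ligand genes were higher and 1 was lower in dura mater ECs, and DESeq2 called 6 higher and 1 lower. Over all genes tested, 7.04% were higher at that unadjusted p in edgeR, and DESeq2 called 6.63% higher. Icam1, a ligand of leukocyte integrins on the EC surface, had 707 and 877 counts in brain, against 25322 and 15998, and was higher in dura mater ECs by 4.64 on the log2 scale (adjusted p = 0.0248 in edgeR). Its receptor subunit Itgb2 was at 2 or fewer counts in the same libraries. Fn1, fibronectin, had 16275 and 16103 counts in brain, against 4954 and 7672 (log2 fold change −1.48, adjusted p = 0.194 in edgeR, 0.00153 in DESeq2 and 0.0436 in edgeR with the replicate block). Vtn, vitronectin, had 234 and 0 counts in brain, against 420 and 77. Among the laminin chains, Lamb2 had 4599 and 4919 against 5216 and 6482 counts, while Lamb1 had 472 and 4 counts against 1647 and 3600. Lama3, a chain of the laminin that alpha 6 beta 4 holds in epithelia, was counted in both tissues, but its partner chain Lamb3 had at most 2 counts in a library. The fibrinogen chains Fga, Fgb and Fgg were at 0 throughout, as was Madcam1, the ligand of Itgb7.

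Proteins that bind the beta tails or build focal adhesions form the next list. Of 30 genes, 25 were tested and none passed in edgeR (2 at an unadjusted p under 0.05 were higher and 1 was lower in dura mater ECs, and DESeq2 called none), with a median log2 fold change of 0.26. Over all genes tested the median was −0.01, 7.04% were higher at that unadjusted p in edgeR, and DESeq2 called 6.63% higher. Summed over the list, brain ECs had 6778 and 7298 CPM and dura mater ECs 7146 and 7451 CPM. Tln1, the talin of most tissues, had 3798 and 4515 counts against 4720 and 9416, and Ilk, the integrin-linked kinase, 3204 and 1323 against 3391 and 1534. Fermt3, the kindlin of blood cells, had 0 and 1 counts in brain, against 201 and 107 (adjusted p = 0.518 in edgeR). Of the 9 hemidesmosome genes, which include Itgb4 and Itga6, 6 were tested and none passed (1 had an unadjusted p under 0.05 and passed in DESeq2, Itgb4). Plec, plectin, had 10 and 1473 counts in brain, against 1857 and 4616, and Col17a1 had 9 or fewer everywhere. Of 11 genes that handle latent TGF-beta, the cargo of integrins with Itgb6 or Itgb8, 9 were tested and none passed (1 at an unadjusted p under 0.05, which DESeq2 called too). That gene was Lrrc32, which holds latent TGF-beta on the cell surface, with 865 and 992 counts against 5450 and 7766 (log2 fold change 2.71, adjusted p = 0.0942 in edgeR). Tgfb1 itself was at 0 in all 4 libraries.

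Markers of other cells were read beside the members. For their DESeq2 calls, the share called higher in dura mater ECs over all genes tested was 6.63%. The 6 lymphatic endothelial markers summed to 122 and 143 CPM in brain, against 429 and 609 CPM. The brain sum was nearly all Flt4, with 1777 and 1905 counts against 2384 and 4018 (adjusted p = 0.888 in edgeR and 0.931 in DESeq2). Pdpn had 3 and 7 counts against 3 and 45. Prox1, Lyve1 and Mmrn1 were at 0 in brain and had 492 and 125, 911 and 1776, and 1132 and 690 counts in the dura mater. None of the 6 passed in edgeR, while 4 passed in DESeq2 (Prox1, Lyve1, Mmrn1 and Ccl21a, which has a close copy and stands on more than 1 row). Lymphatic ECs also carry CD31, and their part in the values of Itgb3, Itgb4 and Itgb5 was not tested. Fibroblast markers, 8 genes, summed to 2517 and 2250 CPM in brain, against 11231 and 11185 CPM and came mostly from Mgp, which rose by 2.20 on the log2 scale (adjusted p = 0.0248 in edgeR). DESeq2 called 4 of the 8 higher (Mgp, Dcn, Col1a1 and Col1a2). Dcn had 16 and 15 counts against 1184 and 1664, while Pdgfra and Lum had 4 or fewer in every library. The part of fibroblasts was not tested either. Astrocyte markers, 8 genes, were at 52.0 and 79.3 CPM against 433 and 177 CPM, with Aqp4 at 0 in all libraries beside Itgb8 at 0. DESeq2 called 2 of them higher, Slc1a3 (1 and 1 counts against 915 and 74) and Slc1a2 (1 and 0 against 863 and 87), and the part of astrocytes was not tested.

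The 17 leukocyte markers summed to 97.0 and 56.8 CPM in brain, against 109 and 51.0 CPM. Ptprc, which encodes the CD45 that the sort removed, had 1 to 4 counts, and Cd3e, Cd3g, Cd79b, Ms4a1 and Nkg7 were at 0. Cd68, a marker of macrophages, was at 0.249 ± 0.0345 CPM in brain, against 33.7 ± 9.81 CPM in the dura mater (SD, n = 2, log2 fold change 6.45, adjusted p = 0.466 in edgeR and 0.0296 in DESeq2). Fcer1g had 6 and 17 counts against 610 and 173. Csf1r (4 and 646 counts in brain, against 28 and 9) and Laptm5 (1377 and 12, against 204 and 133) had log2 fold changes below 0. Lyz2 and Tyrobp had 9 or fewer counts in every library. Of the 7 leukocyte markers tested, 5 had a log2 fold change above 0, as did 49.8% of all genes tested. Among the 5, Cd52, S100a9 and S100a8 were at only 0.47, 0.11 and 0.05. The part of these cells in the values of Itgb3, Itgb4 and Itgb5 was not tested. Platelet markers, 8 genes of which Gp1ba, Gp9, Treml1 and Clec1b were at 0 in all libraries, summed to 46.5 and 0.375 CPM in brain, against 36.3 and 16.1 CPM, and their part in the values of Itgb3 was not tested. Schwann cell markers, 8 genes with Cdh19 at 0, were at 291 and 211 CPM in brain, against 454 and 98.2 CPM. Epithelial and arachnoid markers, 7 genes with Krt19 at 0, were at 1.64 and 11.8 CPM against 29.5 and 14.5 CPM. Mural cell markers, 10 genes, were at 703 and 1167 CPM against 1179 and 680 CPM. Of these Kcnj8 was at 0 in brain and had 468 and 410 counts in the dura mater (adjusted p = 0.466 in edgeR and 0.00744 in DESeq2), and Cspg4 had 0 and 1 counts against 263 and 65. Other markers on the list went the other way. Des had 1056 and 1350 counts in brain, against 412 and 284 (log2 fold change −1.86), and Rgs5 and Acta2 were at −1.24 and −0.54. All 10 were tested, and 7 had a log2 fold change above 0, against 49.8% of all genes tested. The part of mural cells was not tested.

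The genes tested that lay nearest to each member were found by the Euclidean distance of log2(CPM + 1) over the 4 libraries. Nearest to Itgb4 were Ier5l, Adgrg3 and Ptk2b (distances 0.212, 0.226 and 0.366). Ptk2b, a kinase of the focal adhesion kinase family, had 1 and 0 counts in brain, against 1506 and 1945. Nearest to Itgb5 were Sema4a, Gabbr1 and Acss1 (0.156, 0.258 and 0.296), and nearest to Itgb3 were C1qtnf1, Nfil3 and Ralgps2 (0.139, 0.145 and 0.158). Itgb1 lay nearest to Rps14, Hspa1b and Sf1 (0.177, 0.316 and 0.385), 3 genes with high counts in every library. Over 4 libraries such a distance says no more than that the counts are alike.

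The fold changes of the 4 members tested stayed above 0 under each alternative that gave a value, 16 for Itgb1 and 15 for each of the others. For Itgb3, Itgb4 and Itgb5 this sign was set in advance by the counts. They had 2 or fewer in each brain library against 555 or more in each dura mater library. Only for Itgb1 could the sign have changed. Itgb1 ranged from 0.14 to 0.62 and passed in none. The call of the other 3 depended on the method: Itgb4 passed under 7 alternatives, Itgb5 under 4 and Itgb3 under 2. Without brain EC replicate 1, the edgeR adjusted p was 7.3e-06 for Itgb4 and 0.0238 for Itgb5, and without brain EC replicate 2 it was 3.2e-07 and 0.0251. In those fits the lone brain library is assumed to vary like the dura mater libraries. Without a dura mater library, it lay between 0.356 and 0.803. For Itgb3 it was 0.0583 and 0.0604 without a brain library, and 0.771 and 0.755 without one of the dura mater.

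**Figure D5:**
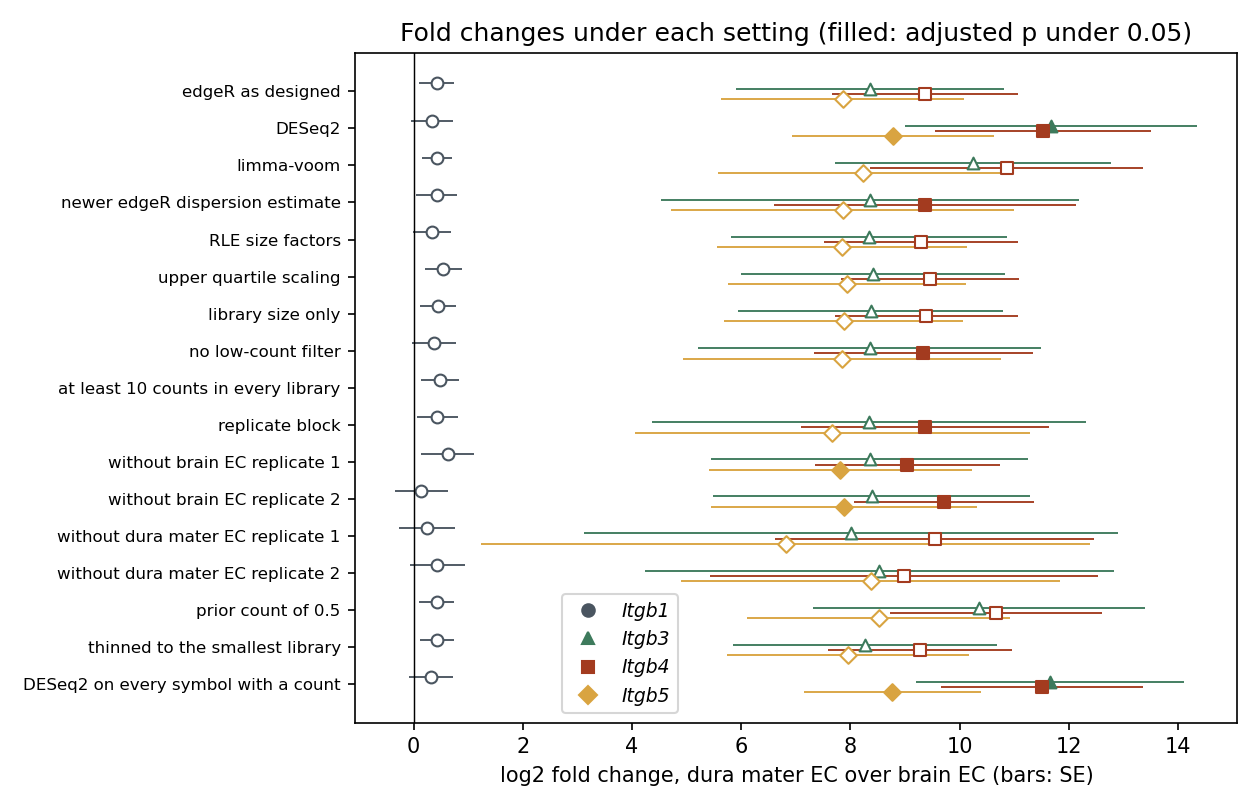
Points give the log2 fold change, dura mater over brain ECs, of Itgb1, Itgb3, Itgb4 and Itgb5 under each setting (rows), with bars for the SE; filled points have an adjusted p under 0.05. All points lie above 0, which the counts fixed in advance for Itgb3, Itgb4 and Itgb5. Those of Itgb1 lie between 0.14 and 0.62, and those of Itgb4 are filled under 7 alternatives.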

How the data were processed

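Sorted ECs were profiled by RNA sequencing (Lexogen Quant-Seq libraries per the labels, whose catalogue number may be that of another Lexogen kit). The authors deposited raw counts per gene symbol, 1 table for each of 4 libraries, 23282 rows each, unscaled. Of the symbols, 35 stand on several rows, none of them a member, and each row was tested as its own gene. The study's methods name TopHat and cufflinks, and the submitters' processing notes name Bowtie2, edgeR and mm10. The counter, annotation, strand setting and use of molecular identifiers are not given in the sources used here. The binomial and Wilson intervals cover counting error only, while the interval of the Itgb1 log2 fold change comes from the edgeR fit.

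Groups came from sample titles. Counts were fitted over the whole table with edgeR 4.0.16 (R 4.3.3): TMM scaling, filterByExpr, tissue as the only term, quasi-likelihood test in its older form, and Benjamini-Hochberg adjustment over all genes tested. It stands in for cufflinks, which needs alignments. Calls had an adjusted p under 0.05. Log2 fold changes used a prior count of 2, the SE is the fold change over the root of F, and its interval used the quantile of the fit's degrees of freedom. DESeq2 1.42.0 and limma 3.58.1 (voom) were alternatives, with other scalings, filters, a replicate block, thinning, and each library left out. The edgeR, DESeq2 and limma-voom fits were also run on simulated data, the outcome of which is not reported here. The members and lists were chosen with earlier results of these data known. Named genes were the 8 members, up to 6 called genes of each list, alpha partners and the 3 nearest genes per member with a mean of at least 10 CPM. Other list genes were named after their values were seen. Positions are from GENCODE M21 (GRCm38). Transcripts were compared by 50-base words.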

Additional observations from a re-analysis of the deposited data

How the results depend on the processing

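Against 57 genes called in edgeR and 0 beta subunits, DESeq2 called 810 genes and 3 members, edgeR's newer dispersion estimate 306 and 1, and no filter on low counts 326 and 1. DESeq2 on every symbol with a count, chosen after seeing the data, called 1257 genes and 3 members. At least 10 counts in every library left 141 genes called, but only Itgb1 among the members could then be tested. An adjusted p under 0.01 left 1 gene. Leaving out 1 library gave 80 to 740 genes and 0 to 2 members. The cause of these shifts was not tested. With the replicate block edgeR called 224 genes and 1 member, Itgb4 (adjusted p = 0.0232). Across 9347 genes, libraries with the same number did not deviate together (Pearson's r −0.0153). A value across genes has no independent replicates, so it does not settle whether the numbers mark pairs. Pairing is not given in the sources used here, and the main fit used none. Limma-voom, the RLE, upper quartile and library size scalings, the prior count of 0.5 and thinning called 0 members. The count of members at 64 or more in both dura mater libraries and fewer in both brain libraries, 3, was also 3 at a limit of 10 counts. The level of Itgb1 over that of Itgb4 in dura mater ECs, a mean of 10.2 in CPM, was 17.6 per kilobase of exon. Depth does not limit Itgb1. For Itgb6, Itgb7 and Itgb8 the limit of about 0.2 CPM covers counting error only, and higher levels could have been missed, since in brain 16.3% and 17.7% of genes with 500 to 2500 counts in 1 library had 7 or fewer in the other.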

Other observations

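Of the 5 symbols that share the first letters with the family but encode other proteins, Itgb3bp changed between replicates in both tissues and Itgb1bp1 in brain ECs. Itgb3bp, a protein of the centromere, had 321 and 0 counts in brain, against 0 and 313. Itgb1bp1, which binds the tail of beta 1, had 0 and 511 counts in brain, against 708 and 758. Itgb1bp2 and Itgb2l were at 0 in all libraries, and Itgbl1 had 1 count in dura mater replicate 1.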
